A study of Mus musculus with 3 samples.

Results

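Gfap-expressing astrocytes of the mouse medial prefrontal cortex were selected on measured RNA: they are the cell barcodes that passed a gate on astrocyte genes and held at least 2 Gfap UMIs per 10000 of their UMIs (unique molecular identifiers, each counting 1 captured RNA molecule). The gate asked for at least 500 genes and 2000 UMIs, at most 15% mitochondrially encoded UMIs, and at least 15 UMIs per 10000 of Gja1, Aqp4 and Slc1a3 together with 2 or more of them detected. It allowed at most 1 UMI of Slc17a7, at most 10 per 10000 of C1qa, Mog and Cldn5 together, and at most 1 UMI of Ccdc153 and Tmem212. Of 52083 barcodes, 3635 passed the gate and 308 of these were Gfap-expressing: 74 of 1336 in estrus, 105 of 879 in diestrus and 129 of 1420 in the male library.

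The study compared tissue of female mice in estrus, female mice in diestrus and male mice, with 1 droplet 3′ library per group, made from the pooled cells of 2 mice. Strain, age and any treatment are not used here. Tissue was dissociated with papain and cleared of debris on Percoll, and 15000 cells were loaded per library. The labels call the cell type neurons, but the gated barcodes carried astrocyte genes. Since each group was 1 library, differences between groups have no replicate check, and their intervals cover counting error only.

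Gfap encodes glial fibrillary acidic protein, an intermediate filament of astrocytes. In the rodent cortex most protoplasmic astrocytes of the grey matter hold little of it, while astrocytes of the pial surface, of white matter and around large vessels hold more, and injury raises it. Astrocytes of the subventricular zone, which lies deep to the cortex, also express it.

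The promoters of Gfap and of Vim, which encodes vimentin, the filament protein that assembles with Gfap, are shown because Vim was among the genes that rose with Gfap. Both are RefSeq sequences of GRCm38.p6, from 250 bases before to 50 after the start of the gene, at chr11:102897151-102897450 on the minus strand for Gfap and at chr2:13574061-13574360 on the plus strand for Vim. Capitals mark matches, on both strands, to TTCNNNGAA, the core that STAT factors recognise, and to TATAAA, the TATA box.
Gfap: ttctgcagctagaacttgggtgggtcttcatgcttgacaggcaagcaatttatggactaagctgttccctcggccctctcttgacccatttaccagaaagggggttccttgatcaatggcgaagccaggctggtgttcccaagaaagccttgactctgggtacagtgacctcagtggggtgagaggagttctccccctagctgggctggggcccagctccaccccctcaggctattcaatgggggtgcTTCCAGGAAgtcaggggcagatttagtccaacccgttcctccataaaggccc
Vim: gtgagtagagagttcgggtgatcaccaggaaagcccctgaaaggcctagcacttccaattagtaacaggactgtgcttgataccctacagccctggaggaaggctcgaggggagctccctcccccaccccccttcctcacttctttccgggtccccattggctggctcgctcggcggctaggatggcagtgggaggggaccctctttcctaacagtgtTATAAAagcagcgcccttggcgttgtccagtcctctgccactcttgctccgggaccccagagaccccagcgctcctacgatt
The Gfap window held 1 match to TTCNNNGAA, which 8.30% of 32851 promoters of this length held, and the Vim window held 1 match to TATAAA, which 13.6% held. A match is a description of these letters and shows no binding.

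Gfap chose the cells, so its level is given as a description. Members held a median of 3.18 Gfap UMIs per 10000 in estrus, 5.61 in diestrus and 4.02 in the male library, with highest values of 15.3, 43.9 and 27.8. Gfap stood at 425 CPM (UMIs of the gene scaled to a total of 1000000 UMIs of nuclear genes) in the summed estrus members, 851 in diestrus and 716 in the male library. The estrus members were thus the lowest in Gfap, and the ranges of the libraries overlapped. Many members rested on few molecules: 36 of 74 estrus members, 24 of 105 diestrus members and 65 of 129 male members held a single Gfap UMI. At least 5 Gfap UMIs were seen in 4, 39 and 26 members. Just inside the limit, 20 estrus, 11 diestrus and 26 male members lay between 2 and 2.5 per 10000, and just outside it 37, 17 and 13 gated barcodes lay between 1.5 and 2.

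The share of gated astrocytes that was Gfap-expressing was 5.54% in estrus (exact 95% interval 4.37 to 6.90), 11.9% in diestrus (9.87 to 14.3) and 9.08% in the male library (7.64 to 10.7). The estrus interval lay below the other two, which overlapped each other. Median depth was 5603 UMIs per gated barcode in estrus, 5453 in diestrus and 4444.5 in the male library, so every gated barcode was also thinned to 2000 UMIs. At that depth 4.72%, 10.9% and 7.61% held a Gfap UMI, and the order of the libraries was the same. With a limit of 5 per 10000 the shares were 1.12%, 6.60% and 3.59%. Before thinning, any Gfap UMI was seen in 11.5%, 16.7% and 10.99% of gated astrocytes, where the estrus and male values lay within each other's intervals.

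Gfap UMIs in other cell types gave the background of free RNA in droplets. Microglia held a Gfap UMI in 0.107%, 0.528% and 0.326% of barcodes of the estrus, diestrus and male libraries, at median depths of 5663, 4843 and 4015.5 UMIs. Oligodendrocytes did so in 0.301%, 1.63% and 1.55%, at 8764, 9162 and 6727 UMIs. Each of these shares lay far below that of the gated astrocytes of the same library. At 2 per 10000 or more, microglia reached 0%, 0.176% and 0.195%.

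**Figure D1:**
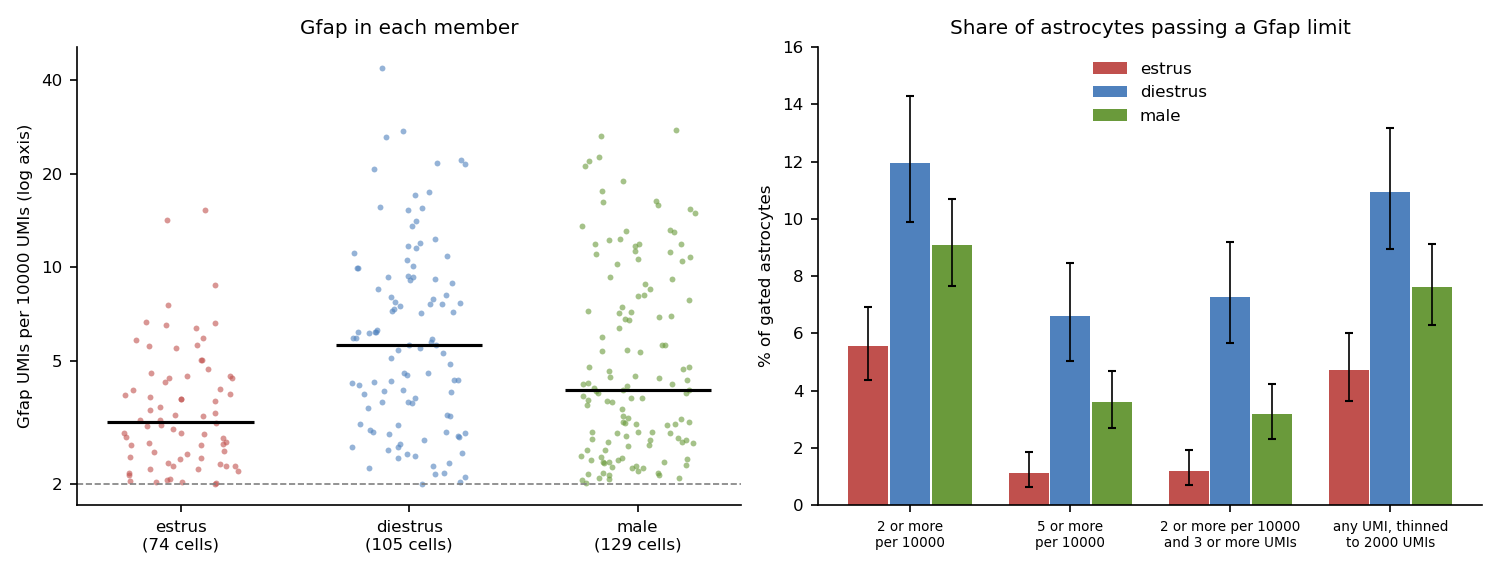
Left, Gfap UMIs per 10000 UMIs of each Gfap-expressing astrocyte (log axis), with the median of each library as a bar and the limit of 2 as a dashed line. Right, the share of gated astrocytes passing 4 Gfap limits in each library, with exact 95% intervals for counting error; the estrus share is the lowest under each limit, from 1.12% to 5.54%.

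Of the 5 markers of the label the rule used all but C4b, so their levels are given as a description and do not check it. Aqp4, the water channel of astrocyte endfeet, stood at 796, 940 and 720 CPM in estrus, diestrus and male members. Gja1, the gap junction protein connexin 43, stood at 1584, 1113 and 1443 CPM. Slc1a3, a glutamate transporter, stood at 3343, 2454 and 3003 CPM. C4b, a complement component, was found in 13.5%, 50.5% and 32.6% of members, against 4.90%, 6.28% and 5.46% of gated astrocytes with no Gfap UMI. The 9 listed astrocyte markers that the gate did not use, C4b among them, were all detected in members of every library, and they summed to 15940, 16444 and 16187 CPM against 13178, 11898 and 11646 CPM.

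Markers of other cell types were also found in members. Oligodendrocyte markers summed to 1234, 1922 and 1055 CPM in estrus, diestrus and male members and to 1585, 2293 and 2507 CPM in astrocytes with no Gfap UMI, and 44.6%, 65.7% and 48.1% of members held at least 2 of them. Excitatory neuron markers summed to 279, 692 and 1002 CPM in members against 253, 796 and 1026 CPM. Summed microglial markers stood at 188, 177 and 349 CPM in estrus, diestrus and male members against 212, 235 and 189 CPM. Members were thus higher in the male library only. Mural cell markers stood at 72.9 to 243 CPM in members and 252 to 280 CPM in the others, and fibroblast markers at 21.1 to 47.8 CPM against 73.9 to 213 CPM. Endothelial markers summed to 260, 43.8 and 175 CPM in estrus, diestrus and male members against 181, 110 and 126 CPM. They were thus higher in estrus and male members and lower in diestrus members. Ependymal markers summed to 101 to 154 CPM in members against 55.2 to 74.3 CPM. The gate itself limits Tmem212 and Ccdc153, so their values near 0 were set by the rule. Neuroblast markers summed to 23.9, 25.9 and 66.6 CPM in estrus, diestrus and male members against 22.2, 39.8 and 64.8 CPM. Of these 6 markers, Dlx2 was at 0 in members of every library, while male members held the other 5. Haemoglobin genes summed to 13927 CPM in estrus members, 3068 in diestrus and 2624 in male members, against 4361, 6425 and 5707 CPM. The part of these RNAs in the results was not tested. No barcode was shared among members of different libraries, although the whole libraries shared 68 to 97 barcodes in pairs.

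Thbs4, Cxcl5 and Igfbp5 had the highest fold changes among the genes named by rank, and C4b and Vim also rose, when Gfap-expressing astrocytes were compared within each library with the 3179 gated astrocytes in which no Gfap UMI was detected (1183 in estrus, 732 in diestrus and 1264 in the male library). Of 91 ribosomal protein genes 79 rose, of 16 metallothionein and antioxidant genes 12, of 17 interferon and antigen presentation genes 9 and of 17 superficial and fibrous genes 9, while 9 of 22 protoplasmic genes fell, beside 8.76% of all genes tested that rose and 6.51% that fell. All gene lists were chosen with earlier results of these data known, so their counts are given as a description. The comparison asks what else differs in astrocytes that hold Gfap RNA. Counts were summed per library and class and tested with edgeR's quasi-likelihood test with library as a block, so the 3 libraries, of different groups, serve as replicates. Nothing says more of each library than that it pooled 2 mice. The p-values and SE rest on a spread that edgeR moderates over all genes, not on each gene's own spread between libraries alone. For Cxcl5 the log2 ratios were 1.40 in estrus, 5.61 in diestrus and 4.83 in the male library (SD 2.24), beside an SE of 0.29. A small p-value thus does not mean that the libraries had changes of like size. Of 12310 genes tested, 1078 rose (8.76%) and 801 fell (6.51%) at a Benjamini-Hochberg adjusted p under 0.05. All 3 libraries had the same direction in 973 of those that rose and 791 of those that fell. As chosen by this test, the genes that rose had a median log2 ratio of 0.39 in estrus, 0.93 in diestrus and 0.71 in the male library. Without the male library 324 rose and 231 fell, without the diestrus library 410 and 344, and without the replicate block 120 and 27. Of the genes named by rank, Ecrg4, Gm11681, Lhfpl3, Grik1, Igfbp2, D030055H07Rik, Vav3, Bmp7 and Mgat4c kept their direction but lost the call without the block.

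Thbs4 encodes thrombospondin 4, a secreted matrix protein of astrocytes of the mouse subventricular zone, and the gene lies at chr13:92751590-92794818 (GRCm38, GENCODE vM21, the build of mm10). It stood at 84.9 CPM in estrus members, 601 in diestrus and 284 in the male library, against 4.10, 9.55 and 9.30 CPM in astrocytes with no Gfap UMI. Every member value lay above every value of the other class, and the fold change was 5.30 on the log2 scale (SE 0.24, edgeR adjusted p = 1.27e-16). Igfbp5 (chr1:72857932-72874884), a secreted binding protein of insulin-like growth factors, stood at 202, 841 and 666 CPM against 32.6, 37.5 and 45.7 CPM (log2 fold change 3.81, SE 0.24, edgeR adjusted p = 8.65e-13). Its groups did not overlap either. Cxcl5, a chemokine, stood at 10.6 CPM in estrus members, from 4 UMIs, and at 276 and 398 CPM in diestrus and male members, against 3.39, 4.66 and 13.0 CPM. The estrus members fell within the range of the other class (log2 fold change 4.94, SE 0.29, edgeR adjusted p = 2.51e-13).

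C4b (chr17:34728380-34743882) stood at 26.5, 222 and 137 CPM in members and at 9.47, 13.97 and 13.6 CPM in the other class (log2 fold change 3.35, SE 0.25, edgeR adjusted p = 7.91e-11). It is a marker named with earlier results of these data in view, so its rise is no independent support for the label. Vim stood at 127, 501 and 308 CPM against 72.5, 54.7 and 39.1 CPM, with the smallest gap in estrus (log2 fold change 2.54, SE 0.26, edgeR adjusted p = 5.36e-08). Fxyd6, a regulator of the sodium pump, stood at 63.7, 248 and 180 CPM against 15.7, 26.3 and 24.9 CPM. Its groups did not overlap. The other genes named by the same rule were Ecrg4, Gm11681, Tspan18, Ccdc74a and the calcium-binding gene S100a4, with log2 fold changes of 2.45 to 3.67.

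Vtn had the lowest fold change among the genes named by rank. It encodes vitronectin, which pericytes express strongly, and it stood at 2.65, 1.62 and 21.6 CPM in members against 73.2, 116 and 77.0 CPM (log2 fold change -3.22, SE 0.36, edgeR adjusted p = 2.83e-07). The 5 other mural markers summed to 71.6, 71.3 and 221 CPM in members against 207, 158 and 175 CPM, so they were lower in estrus and diestrus members and higher in male members, and the part of such cells in this result was not tested. Igfbp2, another binding protein of insulin-like growth factors, stood at 98.2, 11.3 and 27.0 CPM against 240, 195 and 137 CPM, without overlap (log2 fold change -2.20, SE 0.27, edgeR adjusted p = 1.13e-06). Lhfpl3, a gene of oligodendrocyte precursors, stood at 2.65, 6.48 and 18.0 CPM against 56.1, 63.6 and 31.4 CPM. After barcodes with any UMI of 9 stromal and precursor markers were left out, its log2 fold change was -0.90 (edgeR adjusted p = 0.223). The glutamate receptor subunit Grik1, the growth factor Bmp7, the exchange factor Vav3, Fign, Mgat4c and 4 unnamed transcripts completed the rule, with log2 fold changes of -1.79 to -2.28.

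**Figure D2:**
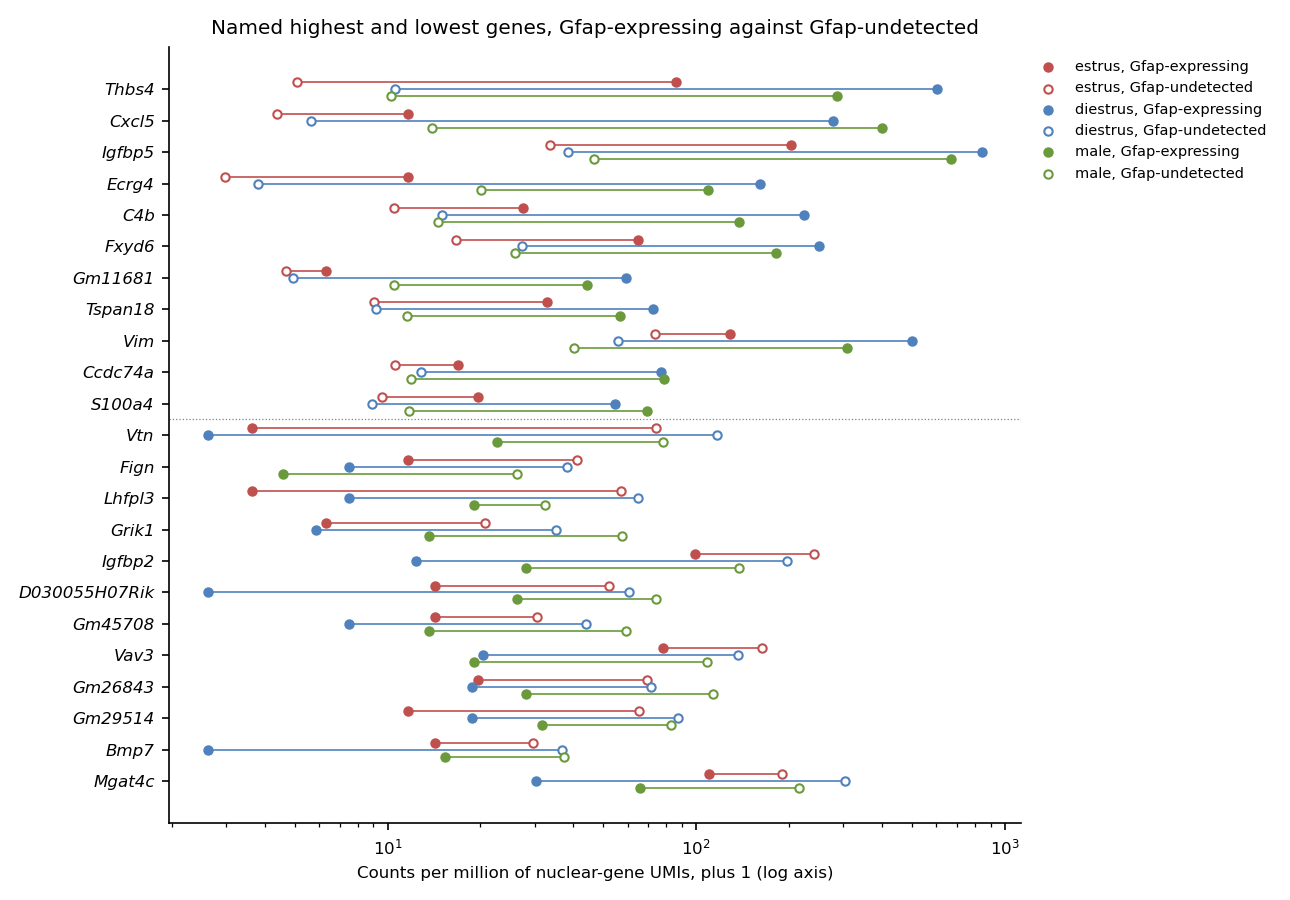
CPM plus 1 (log axis) of the named genes with the highest and the lowest fold changes, in Gfap-expressing (filled) and Gfap-undetected (open) astrocytes of each library. In Thbs4 the filled points lie at 84.9, 601 and 284 CPM and the open points under 10 CPM.

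Intermediate filament and cytoskeletal genes: of 10 tested, 5 rose and none fell, with a median log2 fold change of 0.56 beside -0.03 over all genes. The 5 were Vim, the linker Plec (1.34), the tubulin Tuba1a (0.61) and the calcium-binding proteins S100a6 (1.82) and S100a1 (1.16). S100b, a broad astrocyte marker, had a log2 fold change of -0.19 (edgeR adjusted p = 0.53). Nes, which encodes nestin, had 1 UMI in the members of each library and was not tested.

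Superficial and fibrous astrocyte genes: 9 of 17 rose and 2 fell. C4b, which was named with earlier results of these data in view, was among the 9. Id3, an inhibitor of differentiation and a target of BMP signalling, stood at 1019, 1449 and 1441 CPM in members against 488, 395 and 336 CPM (log2 fold change 1.77, edgeR adjusted p = 5.02e-07). Tnc, which encodes the matrix protein tenascin C, stood at 55.7, 64.8 and 64.8 CPM against 12.2, 21.4 and 12.2 CPM. Both were higher in members of every library, without overlap. Igfbp2, which belongs to the same list, fell, as did the glypican Gpc6 (-0.81). Myoc, which encodes myocilin and marks astrocytes of the glia limitans, was found in 0 of 74 estrus members, which allows a share with a UMI, not a share expressing the gene, of up to 4.05%, and in 5 of 105 diestrus and 10 of 129 male members.

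Protoplasmic astrocyte genes: 9 of 22 fell and 1 rose, with a median log2 fold change of -0.57. Gpc5, a glypican, stood at 4128, 1640 and 2491 CPM in members against 5668, 6557 and 5863 CPM (log2 fold change -1.14, edgeR adjusted p = 0.0018). Mertk, a receptor for engulfment, stood at 714, 259 and 394 CPM against 1091, 962 and 842 CPM. Slc7a10, a transporter of serine and glycine, stood at 321, 64.8 and 151 CPM against 371, 287 and 279 CPM, and here the estrus members lay within the range of the other class. The gene that rose was Phgdh, an enzyme of serine synthesis, at 427, 541 and 448 CPM against 247, 190 and 215 CPM. Slc1a2, the main glutamate transporter of the cortex, stood at 8246, 6125 and 6261 CPM against 7250, 6894 and 6398 CPM (log2 fold change 0.08, edgeR adjusted p = 0.87).

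Cytosolic ribosomal protein genes: 79 of 91 rose and 1 fell, with median log2 ratios of 0.32 in estrus, 1.08 in diestrus and 0.75 in the male library. The list was taken by symbol and so holds some ribosomal S6 kinases, of which Rps6kb1 was the gene that fell (-0.60). Beside this, the median share of mitochondrially encoded UMIs was 3.82%, 6.17% and 4.98% in members and 3.75%, 3.91% and 3.43% in the other class, and median depth was 4509, 5499 and 3962 UMIs against 5554, 5267.5 and 4480. The part of these in the result was not tested.

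Metallothionein and antioxidant genes: 12 of 16 rose and 1 fell. Mt1, which binds zinc and copper, stood at 6232, 14679 and 10820 CPM against 3947, 4610 and 4660 CPM (log2 fold change 1.27, edgeR adjusted p = 0.00068). The glutathione transferase Gstm1 (1.44) and the glutathione synthesis gene Gclm (1.21) also rose, and the cystine transporter Slc7a11 fell (-0.90). Interferon and antigen presentation genes: 9 of 17 rose and none fell, among them B2m, the light chain of class I molecules, at 92.9, 173 and 160 CPM against 71.1, 59.4 and 50.3 CPM (log2 fold change 1.36). Ifitm3, an interferon-induced membrane protein, stood at 26.5, 193 and 272 CPM against 34.1, 58.9 and 42.6 CPM, so it was not higher in the estrus members (log2 fold change 1.85, edgeR adjusted p = 6.6e-06).

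Genes of reactive astrocytes were followed because Gfap is itself raised by injury. Of 6 pan-reactive genes tested, 4 rose (Serpina3n, Vim, S1pr3 and Osmr) and the iron oxidase gene Cp fell (-3.16). The median log2 ratio of these genes was -0.93 in estrus, 2.07 in diestrus and 1.87 in the male library. The opposite sign in estrus is that of the median, not of every gene. In estrus members 1 UMI gives 2.65 CPM, so the ratio of a gene with few UMIs is imprecise there. Serpina3n, a protease inhibitor, stood at 5.31, 22.7 and 37.8 CPM against 3.96, 2.79 and 2.73 CPM. Lcn2 had 0, 0 and 3 UMIs in members and Cxcl10 had 0 in all 3 libraries. Of 11 A1 and A2 reactive genes tested, 4 rose and none fell, namely S100a10, H2-D1, Ggta1 and Psmb8. C3, the complement component that defines A1 astrocytes, had 0, 3 and 0 UMIs in members. Of 6 complement genes tested, C4b and Clu rose and 1 fell, with a median log2 fold change of 0.09. Library medians of the complement list were -0.74 in estrus, -0.42 in diestrus and 0.60 in the male library. Of 12 STAT3 and gp130 genes, Socs2, Osmr and Pim1 rose, and Stat3 itself had a log2 fold change of 0.38 (edgeR adjusted p = 0.17).

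Subventricular and neural stem genes: 6 of 13 rose, among them Thbs4, Tnc, Fabp7, Hopx and Id1, and Egfr fell (-0.54). Of 17 BMP and Id genes, Id1, Id3, Id4 and Gdf10 rose and Bmp7 fell. Of 15 Notch and hedgehog genes none rose, and Gli3 (-0.70) and Ptch1 (-0.84) fell. Of 10 genes that separate telencephalic from other astrocytes, none passed edgeR's test at the adjusted p, 2 had an unadjusted p under 0.05 and DESeq2 called none.

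Of 22 pan-astrocyte genes, 7 rose and none fell, among them Cst3 (1.26), Clu (1.20), Mlc1 (1.02) and Aldoc (0.72). Among 21 lipid genes 6 rose, including Apoe at 22992, 25292 and 21724 CPM against 15799, 10350 and 11754 CPM. Of 17 transport genes, the sodium pump regulator Fxyd1 (1.88) and Cav1 (2.004) rose and Kcnj16, Slc7a11 and Slc12a2 fell; the fitted median of the list was 0.0040 while its library medians were -0.04, -0.22 and -0.03, so they differ in sign. Of 11 calcium-binding and gap junction genes 5 rose, and of 11 heat shock genes Hspe1 and Hspd1 rose. Of 19 matrix and synapse-acting genes, Thbs4, Tnc and Mdk rose and Vcan, Hapln1, Gpc6 and Chrdl1 fell. Of 13 glucocorticoid responsive genes, Nfkbia and Gadd45g rose and Zbtb16 fell. None of 19 immediate early genes passed edgeR's test at the adjusted p, 1 had an unadjusted p under 0.05 and DESeq2 called none.

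Steroid receptors were looked at because the groups differ in sex and cycle stage. Esr1 and Esr2 had no UMI in members of any library, which for the 105 diestrus members allows up to 2.86% with a UMI and sets no limit on cells that express the genes at this depth. Of Pgr, 0 UMIs were seen in estrus members, 2 in diestrus and 1 in the male library. Of 12 genes of steroid receptors and metabolism tested, Tspo (1.51), Hsd17b10, Fdx1 and Pgrmc1 rose and the mineralocorticoid receptor gene Nr3c2 fell (-0.48).

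**Figure D3:**
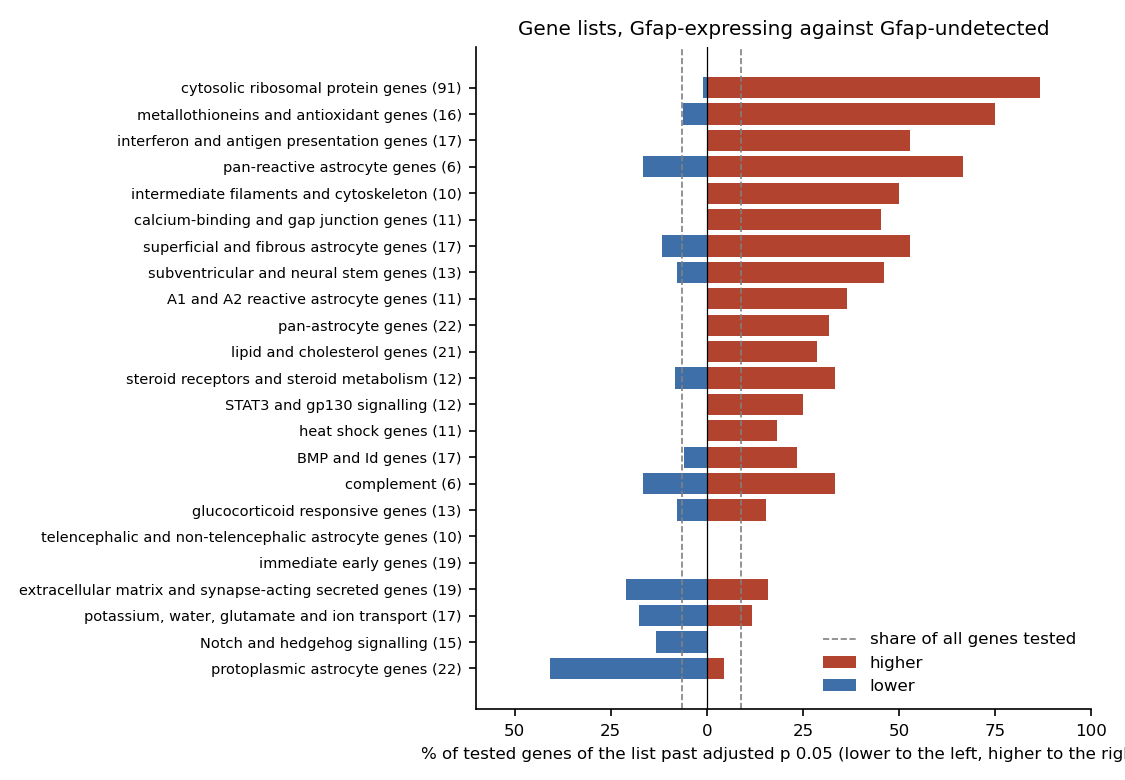
Share of tested genes of each list that were higher (right) or lower (left) in Gfap-expressing than in Gfap-undetected astrocytes at edgeR adjusted p under 0.05, with the number tested in brackets. Dashed lines mark the shares over all genes, 8.76% and 6.51%; the ribosomal list reaches 79 of 91.

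Members were set apart by how many Gfap UMIs they held. With 3 or more, Thbs4 was found in 25.0% of 16 estrus members, 70.3% of 64 diestrus members and 53.3% of 45 male members, and C4b in 12.5%, 65.6% and 60.0%. With a single Gfap UMI, Thbs4 was found in 2.78%, 33.3% and 12.3%. In astrocytes with no Gfap UMI it was found in 1.10%, 3.14% and 1.98%, and median depth was 6800.5, 7153 and 5344 UMIs in members with 3 or more Gfap UMIs, 3916.5, 3827 and 3644 in those with 1, and 5554, 5267.5 and 4480 in those with none. Vim was found in 50%, 87.5% and 73.3% of members with 3 or more. Slc7a10 was found in 81.2%, 17.2% and 20.0% of them, against 82.8%, 73.6% and 68.3% of astrocytes with no Gfap UMI. The estrus share of Slc7a10 thus lay near that of astrocytes with none, and the diestrus and male shares lay below theirs. These shares come from single libraries and the difference between them was not tested.

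Joint detection was counted in single members. Thbs4 was found in 7, 62 and 39 estrus, diestrus and male members, Myoc in 0, 5 and 10, and both in 0, 2 and 1. Thbs4 and Igfbp5 were found together in 6, 60 and 33 members. Thbs4 and Slc7a10 were found together in 6 of 7 Thbs4-holding estrus members, 10 of 62 in diestrus and 6 of 39 in the male library, while Slc7a10 was found in 55 of 74, 24 of 105 and 47 of 129 of all members.

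**Figure D4:**
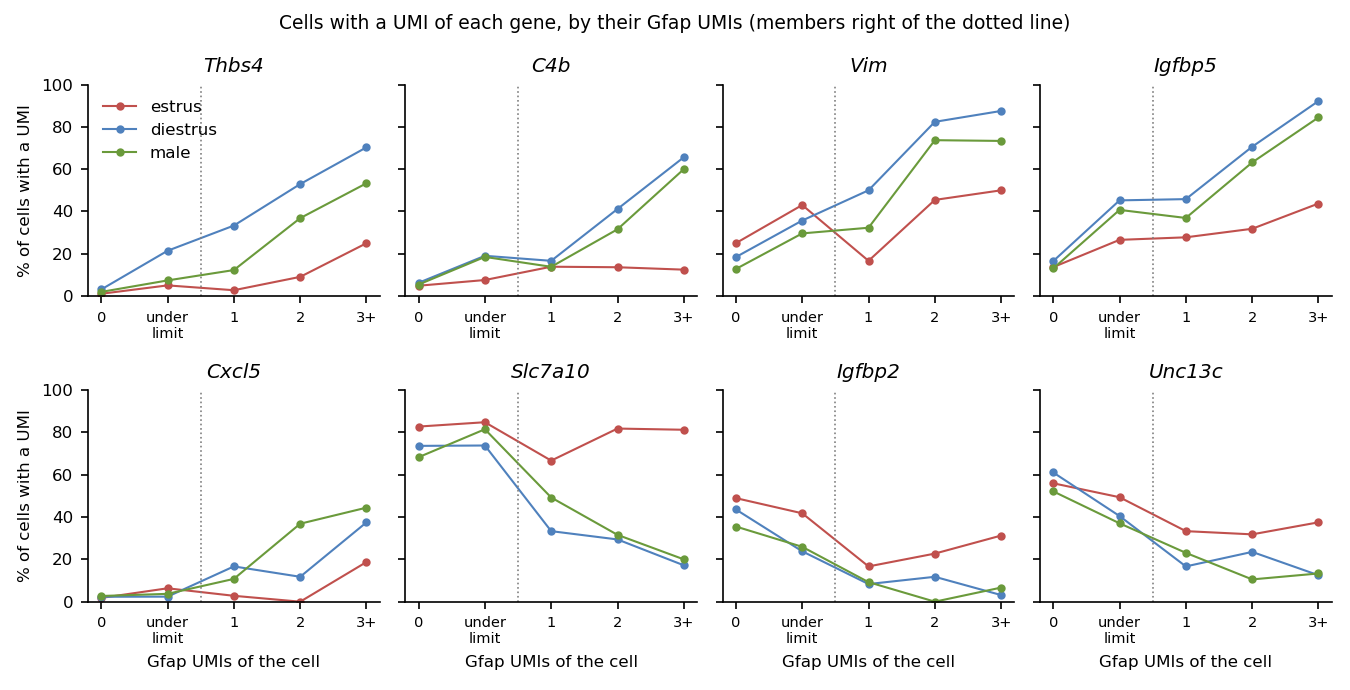
Share of gated astrocytes with a UMI of each of 8 genes, by the Gfap UMIs of the cell and by library; members lie right of the dotted line. Thbs4 reaches 70.3% of diestrus members with 3 or more Gfap UMIs, and Slc7a10 stays at 81.2% in estrus where it is 17.2% in diestrus.

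Igfbp5, Thbs4, Vim and Ifitm3 also rose with Gfap among the members themselves. In each library the members were ranked by Gfap per 10000 and the 24, 35 and 43 highest were compared with as many of the lowest, with edgeR and library as a block. The highest held a median of 3, 7 and 6 Gfap UMIs and the lowest a median of 1 in each library. Median depth was 4512.5, 6599 and 4170 UMIs in the highest and 4500.5, 4753 and 4174 in the lowest. Of 3745 genes tested, 17 rose (0.454%) and 29 fell (0.774%). Igfbp5 stood at 295, 1361 and 1160 CPM in the Gfap-high and at 56.9, 399 and 262 CPM in the Gfap-low members of estrus, diestrus and male (log2 fold change 2.03, SE 0.20, edgeR adjusted p = 0.000435). Ifitm3 stood at 22.7, 388 and 592 CPM against 8.13, 87.6 and 93.0 CPM (log2 fold change 2.37, SE 0.27, edgeR adjusted p = 0.000944). Igfbp5 was higher in the Gfap-high members of every library, while for Ifitm3 the estrus values rest on 3 against 1 UMIs. For both genes the ranges of the 2 classes overlapped, with estrus lowest in each. Fxyd6, S100a10, S100a6 and the glyoxalase Glo1 were the other genes named, with Thbs4 at 1.39 and Vim at 1.40 on the log2 scale.

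Trpm3, a cation channel, fell with Gfap, at 227, 40.6 and 64.2 CPM in the Gfap-high against 626, 200 and 500 CPM in the Gfap-low members (log2 fold change -2.13, SE 0.28, edgeR adjusted p = 0.00287). The transcription factor Dbx2, the glutamate receptor subunit Gria2, the sialyltransferase St6galnac5, Brinp3, Tril, Ptchd4 and C030005K06Rik also fell. Of 18 protoplasmic genes tested 5 fell, and of 12 superficial and fibrous genes 4 rose. The numbers called depended on which libraries were in the fit. Without the diestrus library edgeR called no gene (272 at an unadjusted p under 0.05), without the male library none (185), and without the replicate block none (235), while without the estrus library 170 rose and 198 fell. DESeq2 on all 3 libraries called 13 higher and 20 lower. Across members thinned to 2000 UMIs, the genes whose level ranked most like Gfap were Aldh2, mt-Cytb and Rplp2, with mean Spearman rho over the libraries of 0.26, 0.22 and 0.22, which is weak.

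Between libraries, Thbs4, Cxcl5, C4b, Igfbp5 and Vim were lower and Slc7a10 and Gpc5 higher in estrus than in diestrus members. Of 1789 genes measured deeply enough in estrus and diestrus members, 108 were higher (6.04%) and 160 lower (8.94%) in estrus by a log2 ratio of at least 1. After thinning to 2000 UMIs the counts were 36 and 74, and with members from 5 per 10000 or from 3 Gfap UMIs 32 and 42 were higher. The same genes gave 22 and 22 in astrocytes with no Gfap UMI (1.23% each). Of 1695 genes in estrus and male members, 79 were higher (4.66%) and 121 lower (7.14%), against 27 (1.59%) and 34 (2.01%), and after thinning 24 and 73. Diestrus and male members differed in fewer: 11 of 2203 were higher (0.499%) and 16 lower (0.726%), against 2 (0.0908%) and 4 (0.182%) in astrocytes with no Gfap UMI, and after thinning 4 and 4. For thinning and for the other Gfap limits the number of genes measured is not given, so those counts cannot be read as shares. The estrus sums appear in 2 of these pairs, so those pairs share their estrus members. At least 5 Gfap UMIs were held by 4 of 74 estrus, 39 of 105 diestrus and 26 of 129 male members, and the part of this in the result was not tested.

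Thbs4 in estrus members was lower than in diestrus by a log2 ratio of -2.81 (95% interval for counting error -3.39 to -2.30), where astrocytes with no Gfap UMI gave -1.05. Cxcl5 gave -4.57 (-6.59 to -3.32) against -0.37, and C4b -3.02 (-4.16 to -2.14) against -0.52. Vim gave -1.97 (-2.45 to -1.53) where the other class gave 0.40. Slc7a10 gave 2.29 (1.78 to 2.86) against 0.37, and Gpc5 1.33 (1.22 to 1.45) against -0.21. By list, counting every log2 ratio under or over 0, 9 of 11 superficial and fibrous genes were lower in estrus than in diestrus members (median log2 ratio -1.36), 12 of 14 protoplasmic genes were higher (1.03) and 80 of 80 ribosomal protein genes were lower (-0.95). In astrocytes with no Gfap UMI those medians were -0.10, 0.17 and -0.17, beside a median over all genes measured of -0.09 in members, of which 44.1% were higher and 55.9% lower. Against male members, which had Thbs4 at -1.73, Vim at -1.27 and Slc7a10 at 1.08, 8 of 10 superficial and fibrous genes were lower in estrus (median -0.82), 15 of 16 protoplasmic genes were higher (0.75) and 78 of 79 ribosomal protein genes were lower (-0.82). In astrocytes with no Gfap UMI those medians were 0.21, 0.25 and -0.41, and over all genes measured in members the median was -0.09, with 43.6% higher and 56.4% lower.

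Other genes separated the estrus library in both classes. Pde10a, a phosphodiesterase, was higher in estrus than in diestrus members by a log2 ratio of 4.55 (4.07 to 5.13), where astrocytes with no Gfap UMI gave 2.09. Cmss1 gave 2.77 in members and 3.002 in the other class, and Rhou 3.62 and 2.998. Against the male library, Etnppl, Zswim6, Pde7b and Tsc22d3 were higher in estrus members by log2 ratios of 2.62 to 3.15 and in the other class by 1.67 to 1.99. The neuronal genes Pcp4, Stmn2 and Syt1 were lower in estrus than in male members by log2 ratios of -2.72 to -2.31, and in the other class by -2.48 to -1.82. UMIs of at least 2 excitatory neuron markers were found in 32.4% of the estrus members, against 77.1% in diestrus and 77.5% in the male library, and the part of this in the result was not tested. Hbb-bs was higher in estrus than in male members by 2.79 and not in the other class (-0.26). Xist was absent from male members, which had 0 UMIs, and stood at 984 and 843 CPM in estrus and diestrus members.

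Between diestrus and male members the named differences were smaller. Thbs4 was higher in diestrus by a log2 ratio of 1.08 (0.81 to 1.36), and Tmeff2 by 1.47 (0.86 to 2.15), which turned to -0.099 after thinning. Dpp10, a potassium channel subunit, was lower by -3.36 (-4.37 to -2.59), where the other class gave -1.50. It was found in 11.4% of diestrus members, from 13 UMIs, and in 13.2% of male members, from 125 UMIs. The shares of cells were thus near each other, and the interval does not cover the spread of UMIs between cells. The inhibitor of NF-kB Nfkbia was lower by -1.30 (-1.88 to -0.77), where the other class gave -0.01.

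**Figure D5:**
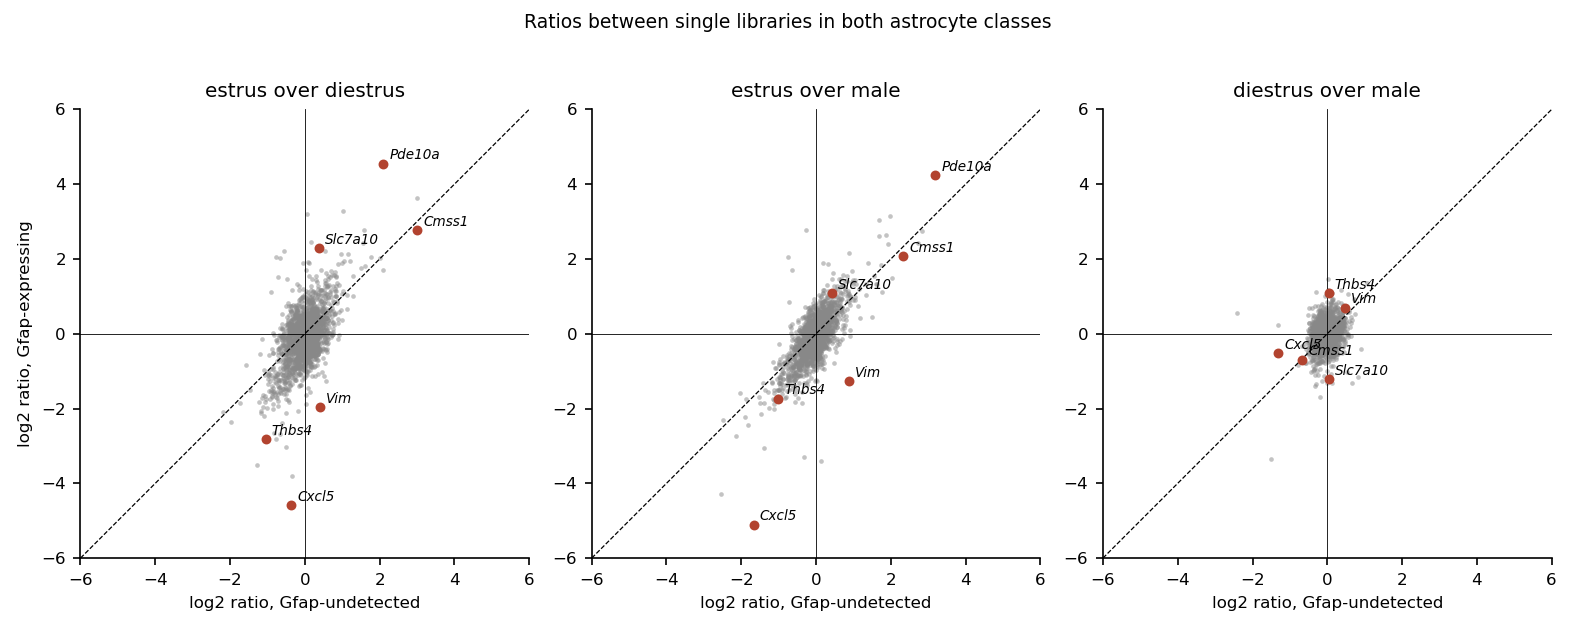
Log2 ratio of each measured gene between single libraries in Gfap-expressing (vertical) against Gfap-undetected astrocytes (horizontal), Xist left out; the dashed line marks equal ratios. In the estrus over diestrus panel Thbs4 lies at -2.81 in members and -1.05 in the other class, and Cmss1 lies near the line at 2.77 and 3.002.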

How the data were processed

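The deposited matrices hold raw UMI counts per gene and barcode, which the authors made with Cell Ranger 3.0.2 on mm10 per the submitters' processing notes, while the file headers name version 7.0.0. For the annotation, intronic reads, strand and cell calling, no setting was found in the labels or headers. Members, gene lists and markers were chosen with earlier results of these data known. Counts were summed per library and class and fitted with edgeR 4.0.16 (TMM, filterByExpr, quasi-likelihood test, library as a block) in R 4.3.3, with Benjamini-Hochberg adjustment over all genes tested; genes of the gate got no test. Each SE was worked back from the test, as the size of the log2 fold change over the square root of the F statistic. The block was kept because both sums of a library come from the same 2 mice. Libraries were compared as log2 ratios of CPM + 1, for genes with at least 100 UMIs and a mean of at least 20 CPM, with exact binomial intervals and no test. Named genes were the 12 highest and 12 lowest fold changes (8 and 8 for Gfap-high against Gfap-low). They had to pass edgeR adjusted p 0.05, a mean of at least 20 CPM and the same direction in every library. For each pair of libraries they were the 8 highest and 8 lowest log2 ratios among the genes compared, with no test. Up to 4 genes per list were added, and further genes of a list were named after their values were seen. The members held 393750, 661488 and 589858 UMIs in estrus, diestrus and male, and UMIs in sums of few cells set the precision. Doublets were met by the gate; Scrublet (in scanpy 1.11.5) scored 263, 196 and 211 barcodes above 0.3, of which 0, 0 and 3 were members. The fit was also run on simulated counts in which each changed gene had the same class effect in every library. That run does not cover effects that differ between libraries. Alternatives were DESeq2 1.42.0, its size factors, no filter, other Gfap limits, thinning, other-marker exclusion and each library left out. A few genes that met these rules are not reported here.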

Additional observations from a re-analysis of the deposited data

Results flagged for a closer look

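For 15 genes the log2 ratio of Gfap-expressing over Gfap-undetected astrocytes had opposite signs in 2 libraries, beyond counting error in each; every group is 1 library, so the difference was not tested. Among haemoglobin genes, Hba-a1 stood at 1.85 in estrus and -0.99 in diestrus. Hba-a2 stood at 1.26 in estrus and -1.41 in diestrus. Hbb-bs stood at 1.87 in estrus and -0.89 in diestrus. Hbb-bt stood at 0.26 in estrus and -2.88 in diestrus. The mural gene Acta2 stood at 1.42 in the male library, from 24 UMIs in 2 of 129 members, and -3.97 in estrus, from 1 UMI. The pericyte gene Rgs5 stood at 1.37 in the male library, from 41 UMIs in 4 members, and -5.62 in estrus, where members had 0 UMIs and the value depends on the added 1 CPM. The immediate early gene Fos stood at 1.26 in the male library and -0.70 in diestrus. Btg2 stood at 1.03 in the male library, from 45 UMIs in 14 members (10.9% of members, against 15.3% of astrocytes with no Gfap UMI), and -0.90 in diestrus. Tnr, which encodes tenascin R, stood at 1.00 in the male library, from 20 UMIs in 8 members, and -2.38 in estrus, from 2 UMIs. Dpp10 stood at 0.68 in the male library, from 125 UMIs in 17 members, and -1.18 in diestrus. Basp1 stood at 0.44 in the male library and -0.60 in diestrus. Rbbp6 stood at 0.48 in the male library and -0.63 in diestrus. Crip1 stood at 1.56 in diestrus and -1.25 in estrus. Itih3 stood at 0.54 in estrus and -1.33 in diestrus. The glutamate transporter Slc1a2 stood at 0.19 in estrus and -0.17 in diestrus.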

How the results depend on the processing

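Genes higher and lower in Gfap-expressing astrocytes numbered 573 and 280 of 12310 tested with DESeq2. They numbered 459 and 226 of 9551 after thinning, and 520 and 314 of 10772 without barcodes holding any other marker UMI. Without the replicate block they numbered 120 and 27. Leaving out each library gave 324 to 1403 higher and 231 to 1156 lower. Of 353 values of named genes under alternatives, 339 kept their direction and side of the threshold and 14 kept their direction only; for Gfap-high against Gfap-low 95 of 166 and 71 did so, and of 384 values of genes named in pairs 329 stayed within the counting interval, 52 moved beyond it and 3 changed sign. The median of the potassium, water and transport list, 0.0040, changed sign: -0.0092 against all under 2 per 10000, -0.14 from 5 per 10000, -0.064 and -0.11 from 2 and 3 Gfap UMIs, -0.11 with no filter, -0.0099 without the replicate block, -0.0945 without stromal and precursor markers and -0.041 to 0.053 when each library was left out. The telencephalic list gave -0.394 to 0.079 when each library was left out.

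Gfap-high against Gfap-low counts, 17 and 29 of 3745 genes tested in the main fit, came from differing numbers of genes under the alternatives. They were 5 and 14 of 2280 from 2 Gfap UMIs and 53 and 78 of 15959 with no filter. Without the replicate block they were 0 and 0 of 3745 (edgeR, 235 at an unadjusted p under 0.05). After thinning they were 9 and 16 of 1134, and without other marker UMIs 8 and 8 of 1948. Leaving out each library gave 0 to 170 higher and 0 to 198 lower. The pan-astrocyte median turned to 0.039 from 2 Gfap UMIs, and the lipid median to 0.12 from 2 Gfap UMIs, 0.022 after thinning and -0.262 to 0.055 when each library was left out.

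Shares in estrus, diestrus and male were 1.12%, 6.60% and 3.59% from 5 per 10000, 1.20%, 7.28% and 3.17% from 3 Gfap UMIs, 7.37% in the male library from 4000 UMIs, and 2.47%, 6.60% and 4.93% after thinning to 1000 UMIs.

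Estrus over diestrus counts of higher and lower genes were 2207 and 3730 with no minimum and 36 and 74 after thinning; 32 were higher from 5 per 10000 and 42 from 3 Gfap UMIs. Estrus over male gave 1824 and 4021, 24 and 73, and 39 and 77 from 3 Gfap UMIs, with 25 higher from 5 per 10000. Diestrus over male gave 1989 and 2732, 4 and 4, 7 and 10, with 3 lower from 5 per 10000 and 18 higher without Scrublet scores above 0.3. The number of genes measured under each of these settings is not given, so these pair counts cannot be read as shares. Gm20713 turned to 0.23 and Ranbp3l to 0.49 from 5 per 10000, and Tmeff2 to -0.099 after thinning. The cause of these changes was not tested. The limits on stromal markers and on 2 Gfap UMIs, and 3 Gfap UMIs in the pairs, were chosen after seeing the data. Few members and few Gfap UMIs per member limit the depth in each library.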
